A study of Rattus norvegicus with 8 samples.

Results

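Primary cultures of rat semicircular canal duct (SCCD) epithelium were examined for 10 genes of the epithelial cytoskeleton and barrier, namely the keratin genes Krt8, Krt18, Krt19, Krt7, Krt5, Krt14, Krt15, Krt17 and Krt10 and the cornified envelope gene Sprr1a. The genes were chosen by name with their signals on these same arrays, and the difference of those signals between dexamethasone and control, already known, and every probe set carrying one of the names was taken. This gave 9 probe sets for 9 of the 10 genes, out of 15866 probe sets other than controls, and Krt17 was without a probe set here. Newborn Wistar rats were the source of the canals, and the cells were kept as primary cultures on porous membranes. The control group (n = 4) was untreated and the other group (n = 4) received 100 nM dexamethasone, a synthetic glucocorticoid, with 1 array per sample. The time of exposure before the RNA was taken, and whether the samples of a group came from separate dissections, are not given for the arrays in the sources used here, so that the errors and tests cover only the spread among these samples, which may be technical. A primary culture can also hold cells of the tissue around the duct.

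Keratins are the intermediate filament proteins of epithelia, and each filament is built from equal parts of a type I and a type II keratin. Krt8 (type II) and Krt18 (type I) are the primary pair of single-layered epithelia, and Krt7 (type II) and Krt19 (type I) are common in ducts. Krt5 (type II) and Krt14 (type I) form the pair of basal cells in layered epithelia, where Krt15 (type I) is also found, and Krt10 (type I) belongs to the cells above the basal layer of the epidermis. Sprr1a, a small proline-rich protein, is a precursor that transglutaminases cross-link into the cornified envelope, and it is also known as a gene induced by stress and injury.

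The array signal is an intensity in arbitrary units for each probe set, and here every array was rescaled to a trimmed mean of 500. Before rescaling, this trimmed mean was 500.1 on replicates 1 and 2 of both groups and 202.0 to 336 on replicates 3 and 4, so that the arrays fall into 2 array sets by their replicate number. Control replicate 3 needed the largest factor, 2.48. The RNA was amplified before hybridization, so that the ratio of the 3' to the 5' probe set of a gene does not measure RNA quality alone. For beta-actin this ratio was 8.10 to 13.7 in control, highest on control replicate 3, and lower on each array with dexamethasone (6.17 to 8.07). The same ratio for GAPDH overlapped, with 2.10 to 3.79 in control and 2.14 to 3.18 with dexamethasone, and within replicates 1 and 2 it was higher with dexamethasone. Signals of 61 probe sets from 54 genes of tissues unlike this one set a level of silent genes, namely their 95th percentile on an array, and this lay between 153 and 266. Of the 12 markers of simple epithelium and canal duct with a probe set, 8 were above this level on all 8 arrays, among them the adhesion genes Epcam and Cdh1, and Fxyd2 was above it on none. Their summed signal was 27612 to 31611 in control and 30177 to 32501 with dexamethasone. Of the 11 fibroblast markers, the collagen genes Col1a1, Col1a2 and Col3a1 and Postn were above the level on all 8 arrays and 5, Dcn, Lum, Pdgfra, Pdgfrb and Thy1, on none, with summed signals of 6119 to 7803 in control and 4858 to 7826 with dexamethasone. In bulk samples such as these, fewer cells of a type and less RNA per cell cannot be told apart.

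The stretches of 250 bases before the annotated start sites of Sprr1a, Krt18 and Krt8 are shown because these are the 3 members whose signals did not overlap between the groups. They are written 5' to 3' from RefSeq, build GRCr8, and capitals mark the motifs that were searched on both strands.
Sprr1a, GRCr8 chr2:180752626-180752875, strand -: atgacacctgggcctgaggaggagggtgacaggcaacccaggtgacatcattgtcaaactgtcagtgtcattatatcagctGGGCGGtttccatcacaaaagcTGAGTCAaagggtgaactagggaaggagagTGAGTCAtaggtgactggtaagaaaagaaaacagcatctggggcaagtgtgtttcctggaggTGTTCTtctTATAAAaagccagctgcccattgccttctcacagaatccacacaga
Krt18, GRCr8 chr7:135035918-135036167, strand +: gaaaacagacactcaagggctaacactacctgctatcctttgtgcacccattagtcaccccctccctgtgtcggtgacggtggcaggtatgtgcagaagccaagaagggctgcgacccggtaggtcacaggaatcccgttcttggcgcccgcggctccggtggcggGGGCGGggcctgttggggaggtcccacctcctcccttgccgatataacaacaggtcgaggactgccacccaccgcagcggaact
Krt8, GRCr8 chr7:135010340-135010589, strand -: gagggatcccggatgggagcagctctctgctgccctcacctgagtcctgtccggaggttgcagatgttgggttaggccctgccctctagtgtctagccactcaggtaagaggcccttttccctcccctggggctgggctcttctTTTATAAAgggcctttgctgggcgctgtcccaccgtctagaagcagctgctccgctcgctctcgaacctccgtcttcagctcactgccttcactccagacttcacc
In the Sprr1a stretch the capitals are a GC box (GGGCGG), 2 AP-1 sites (TGANTCA) that start 147 and 117 bases before the start site, a half-site of the glucocorticoid response element (TGTTCT) and a TATA box (TATAAA). The Krt18 stretch holds 1 GC box, and the Krt8 stretch holds a TATA box whose first letters overlap a match on the other strand. Among 33469 promoter stretches of the same length, 6.34% held the AP-1 letters, 17.52% the half-site, 12.93% the TATA box and 30.47% the GC box. The full glucocorticoid response element (AGAACA and TGTTCT with 3 free bases between) was in 0.01% of all stretches and in 0 of the 5 member stretches at hand, which also included those of Krt5 and Krt10. The inverted repeat known from negative glucocorticoid elements (CTCCGGAGA, or with 1 or 2 free bases in its middle) was in 1.29% of all stretches and in 0 of these 5. These matches are descriptions of letters and not of binding.

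Sprr1a was the member with the widest difference between the groups. Its signal (probe set 1371248_at) was 566, 629, 2042 and 1171 on control replicates 1 to 4, and 177, 65.8, 175 and 262 on dexamethasone replicates 1 to 4. The control signals thus all exceeded the highest signal with dexamethasone. The group means were 1102 ± 683 in control and 170.0 ± 80.4 with dexamethasone (SD, n = 4 each). The log2 difference, dexamethasone minus control, was -2.66 (SE 0.45, 95% interval -3.63 to -1.69 from limma). All 4 control signals of Sprr1a were above the level of silent genes on their array, as against 2 of 4 with dexamethasone, so that the size of the difference rests in part on signals at background, and no fold is given. With a floor of 100 under all signals it was -2.51. The difference was -2.47 within replicates 1 and 2 and -2.85 within replicates 3 and 4. Without control replicate 3, the array with the highest signal, it was -2.30. When the beta-actin ratio (log2) entered the fit as a covariate, it was -1.83 and no longer passed the test across all probe sets, nor did it pass with no filter on low signals. Since the beta-actin ratio did not overlap between the groups, a fit with this covariate cannot tell the ratio and the treatment apart.

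Of the 8 member probe sets tested, Sprr1a and Krt18 passed the test at a Benjamini-Hochberg adjusted p under 0.05 (limma), both lower with dexamethasone, beside 2.69% of all 10368 probe sets tested in either direction (1.88% higher and 0.810% lower). Sprr1a, Krt18 and Krt8 were the 3 without overlap between the groups, all lower, beside 11.0% of all probe sets tested (5.57% higher and 5.46% lower). Because the genes were picked with this contrast known, both counts are descriptions, no p-value is given for a member's response to dexamethasone, and nothing is read from them. The median log2 difference over the 8 tested members was -0.0060 and that over all probe sets tested was -0.023. Krt10, with a mean signal under the filter of 100, was not among those tested.

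**Figure D1:**
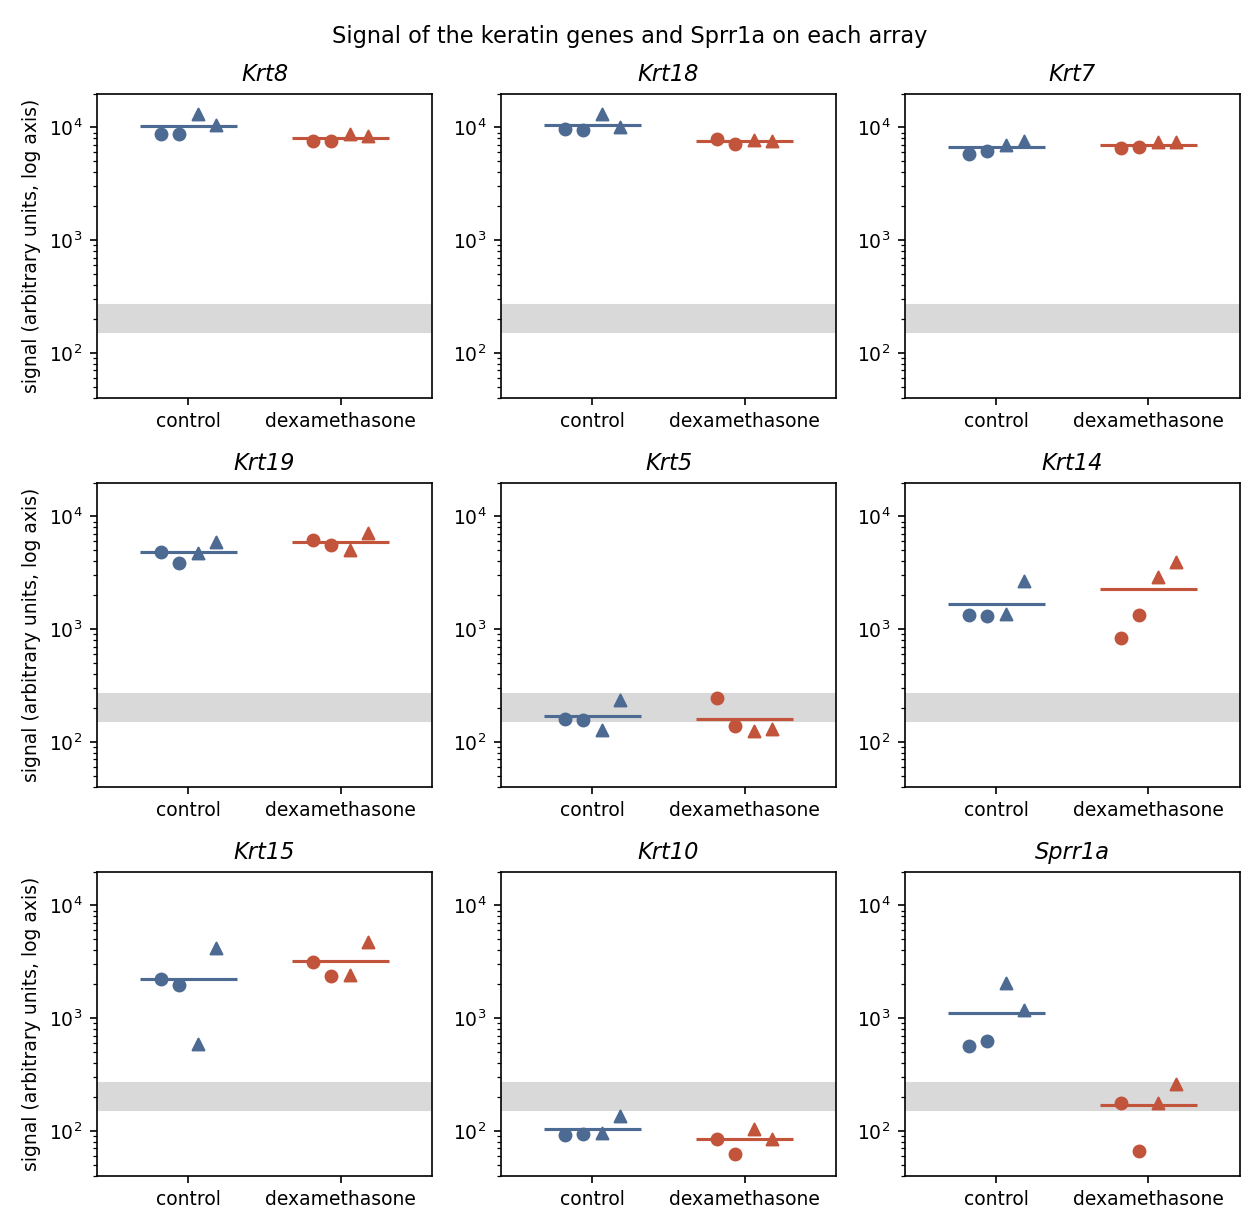
Signal of each member gene on every array (control in blue, dexamethasone in red, replicates 1 and 2 as circles, replicates 3 and 4 as triangles), in arbitrary units on a log axis, with the group mean as a line and the range of the silent-gene level, 153 to 266, as a grey band. Sprr1a falls from 566 to 2042 in control to 65.8 to 262 with dexamethasone, Krt8, Krt18, Krt7 and Krt19 lie far above the band on all 8 arrays, and Krt10 lies below it.

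The primary pair of simple epithelia was strongly expressed in both groups and lower with dexamethasone. The signal of Krt18 (probe set 1388155_at) was 9716, 9507, 13057 and 10032 on control replicates 1 to 4, and 7925, 7138, 7709.9 and 7628 on dexamethasone replicates 1 to 4. The lowest control array was above the highest dexamethasone array. The mean was 10578 ± 1667 in control and 7600.1 ± 333 with dexamethasone (SD, n = 4 each), a log2 difference of -0.47 (SE 0.10, 95% interval -0.69 to -0.25). Its partner Krt8 (probe set 1371530_at) had signals of 8705, 8825, 13059 and 10477 in control and of 7556, 7623, 8691 and 8415 with dexamethasone. The groups of Krt8 again did not overlap, though only narrowly, and both keratins were highest on control replicate 3. The mean of Krt8 was 10266.6 ± 2029.7 in control and 8071 ± 568 with dexamethasone (SD, n = 4 each), a log2 difference of -0.33 (SE 0.12, 95% interval -0.59 to -0.066).

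The log2 difference of Krt18 was -0.35 within replicates 1 and 2 and -0.58 within replicates 3 and 4, and that of Krt8 was -0.21 and -0.45. Without control replicate 3 they were -0.36 for Krt18 and -0.21 for Krt8. Krt18 did not pass the test when any 1 of the 4 dexamethasone arrays was left out, when arrays were centred on their median, with the signals as deposited or with replicates 3 and 4 alone. With the beta-actin ratio as a covariate the difference of Krt18 was -0.23 and that of Krt8 was -0.049. With the array set as a block, Krt8 passed the test together with Krt18 and Sprr1a. The RefSeq table lists 6 pseudogenes of Krt18 and 1 of Krt8 in the rat genome, and whether the probes match them was not tested here.

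The ductal pair had high signals too and did not share this direction. Krt19 (probe set 1388433_at) had signals of 4866, 3876, 4752 and 5874 on control replicates 1 to 4 and of 6227, 5564, 5060.1 and 7110.2 on dexamethasone replicates 1 to 4. Dexamethasone replicates 1 and 4 were above every control array, and the groups overlapped. The means were 4842 ± 818 (SD, n = 4) and 5990.4 ± 886 (SD, n = 4), with a log2 difference of 0.31 (SE 0.13, 95% interval 0.018 to 0.60), which was 0.44 within replicates 1 and 2 and 0.18 within replicates 3 and 4. Krt19 did not pass the test. Krt7 (probe set 1373900_at) had signals of 5859, 6117, 7009.6 and 7603.5 in control and of 6530.0, 6702, 7461 and 7478 with dexamethasone. Its groups lay within the same range, with a log2 difference of 0.089 (SE 0.097, 95% interval -0.12 to 0.30). Krt7, the type II partner of Krt19 in ducts, thus had the narrowest interval of the members.

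Because a ratio of 2 genes within an array does not depend on the array's scaling, the keratins were also set against each other within arrays. Relative to its mean in control, the log2 ratio of Krt19 to Krt18 lay between -0.33 and 0.36 in control and between 0.52 and 1.03 with dexamethasone. The ratio was therefore higher on every dexamethasone array, by 0.78 on average (SD 0.31 in control and 0.21 with dexamethasone, n = 4 each). The ratio of Krt19 to Krt8 likewise lay at -0.38 to 0.24 in control and at 0.30 to 0.84 with dexamethasone. For the primary pair itself, Krt18 to Krt8, the groups overlapped, with -0.11 to 0.11 in control and -0.22 to 0.018 with dexamethasone. These ratios rest on the same contrast by which the genes were picked, and they show unequal change between genes and not which of them changed.

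**Figure D2:**
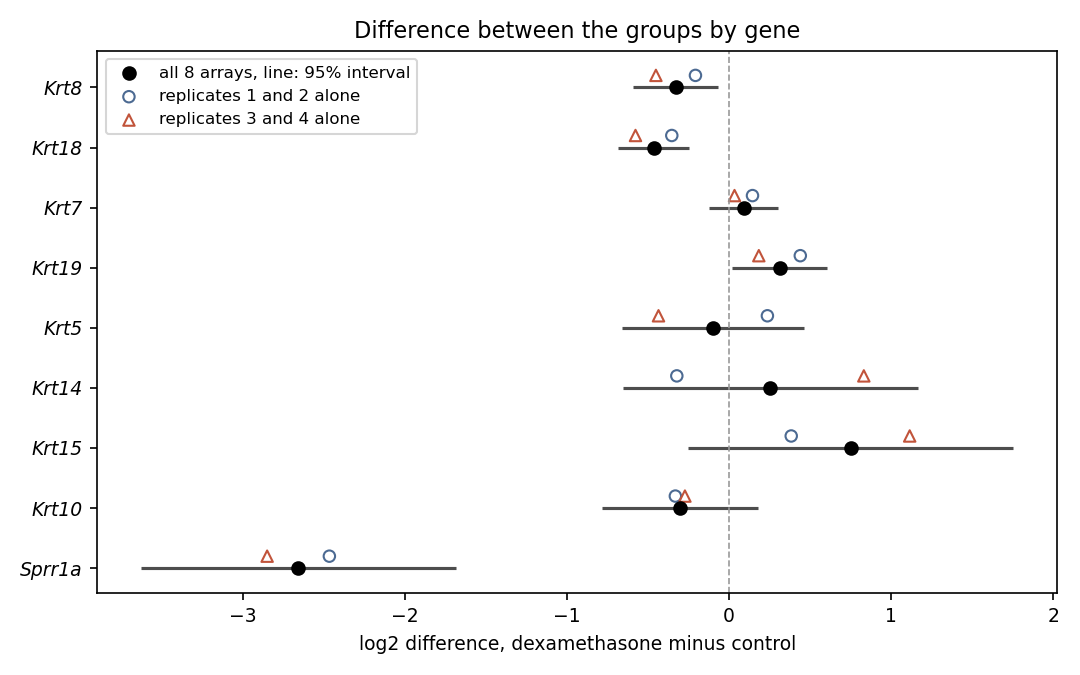
Log2 difference (dexamethasone minus control) of each member, with the 95% interval from limma (black, n = 4 arrays per group) and the values within replicates 1 and 2 (circles) and within replicates 3 and 4 (triangles). Sprr1a at -2.66 lies far from the keratins, Krt14 has opposite signs in the 2 array sets, and the values of Krt5 and Krt10 rest on signals near or below the silent-gene level.

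The keratins of basal cells varied widely between samples of the same group. Krt14 (probe set 1371895_at) had signals of 1332, 1304, 1355 and 2682.5 on control replicates 1 to 4 and of 840.4, 1321, 2919 and 3942 on dexamethasone replicates 1 to 4. Control replicate 4 and dexamethasone replicates 3 and 4 were the high arrays, and the groups overlapped. The means were 1668 ± 676 (SD, n = 4) and 2255.5 ± 1433 (SD, n = 4), and the log2 difference was 0.25 (SE 0.42, 95% interval -0.66 to 1.16). It was -0.32 within replicates 1 and 2 and 0.83 within replicates 3 and 4, and no direction was kept. Krt15 (probe set 1372153_at) had signals of 2238.5, 1962, 591 and 4189 in control and of 3166, 2359, 2428 and 4778 with dexamethasone. Its lowest signal was on control replicate 3 and the highest of each group on replicate 4. Its log2 difference of 0.75 (SE 0.46, 95% interval -0.26 to 1.75) became 0.21 without control replicate 3 and -0.35 with the beta-actin ratio as a covariate. The group means of Krt15 were 2245.0 ± 1482.5 in control and 3183 ± 1124.5 with dexamethasone (SD, n = 4 each).

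Krt5, the type II partner of Krt14, was near the level of silent genes at its probe set (1370863_at). Its signals were 158, 155.5, 127 and 233.5 in control and 246, 139, 125.0 and 129 with dexamethasone, and 1 array of each group was above the silent-gene level. Its log2 difference of -0.10 (SE 0.26, 95% interval -0.66 to 0.46) therefore rests on signals near background, and no direction is read from it. Krt10 (probe set 1373254_at), the epidermal keratin, had signals of 91.2, 92.8, 95.3 and 134.0 in control and of 84.9, 62.9, 103 and 84.8 with dexamethasone. It was above the silent-gene level on 0 of 8 arrays, and its log2 difference of -0.30 in a fit over all probe sets (SE 0.20, 95% interval -0.79 to 0.18) is a difference of background signals. The other 6 members besides Krt5, Krt10 and Sprr1a were above that level on all 8 arrays.

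The members differed widely in their spread between replicates, taken within groups so that the difference between the groups does not enter it. The SD of the log2 signal was 0.90 for Krt15, 0.86 for Sprr1a and 0.81 for Krt14, against a median of 0.23 over all probe sets tested. These exceeded the SD of 99.4%, 99.2% and 99.1% of those probe sets. The keratins of simple and ductal epithelium lay at 0.14 (Krt7), 0.16 (Krt18), 0.21 (Krt8) and 0.23 (Krt19), below or near that median. Among the 2652 probe sets whose mean signal reached 1000, a closer match for these strong signals, the median SD was 0.17. The SDs of Krt7 and Krt18 exceeded 36.7% and 44.6% of these, and those of Krt8 and Krt19 exceeded 68.2% and 75.8%.

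The 2 array sets were also compared, a comparison added after the signals had been seen, and no member passed. With treatment in the same limma fit, the log2 difference of replicates 3 and 4 minus replicates 1 and 2 was 1.18 for Sprr1a (SE 0.29, adjusted p = 0.0513) and 1.11 for Krt14 (SE 0.27, adjusted p = 0.0506). It was 0.23 for Krt7 (SE 0.062, adjusted p = 0.0658) and 0.29 for Krt8 (SE 0.081, adjusted p = 0.0706). None of the 8 tested members passed at an adjusted p under 0.05, beside 3.49% of all probe sets tested (1.49% higher and 2.00% lower in replicates 3 and 4, limma). The mean signal of Krt14 was 1199 over replicates 1 and 2 and 2725 over replicates 3 and 4, and that of Sprr1a was 359 and 913. What sets the array sets apart other than their scaling is not given in the sources used here. Some markers of other tissue, named after their values were seen, also differed between the sets over both groups. The cartilage collagen gene Col2a1 had 1804 to 2325 on replicates 1 and 2 and 670 to 1233 on replicates 3 and 4. Col9a1 had 3039 to 4191 and 1392.5 to 1916. Col1a2 went the other way, with 704 to 1338 and 1409 to 1935. The part of this in the keratin signals was not tested.

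Among the other keratins, Krt13 (type I), known from layered epithelia of mucous membranes, rose with dexamethasone. Its signal was 313, 303, 316 and 309 on control replicates 1 to 4 and 894, 529.8, 393 and 581 on dexamethasone replicates 1 to 4. All 4 dexamethasone arrays were above the control arrays, which lay close together, and Krt13 was above the silent-gene level on all 8 arrays. The log2 difference came to 0.89 (limma, SE 0.21, adjusted p = 0.0426), with 1.16 within replicates 1 and 2 and 0.61 within replicates 3 and 4. The adjusted p was above 0.05 when any single array other than dexamethasone replicate 3 was left out (0.0608 to 0.112 from limma), and over all alternatives it ranged from 0.0102 to 0.974. In the RefSeq gene order Krt13, Krt15 and Krt19 are neighbours in the type I keratin cluster.

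Of 8 other keratin genes with a probe set, 3 were tested, 1 rose and 0 fell. Krt12, known from the cornea, had a log2 difference of 0.51 (SE 0.34, adjusted p = 0.516 from limma), and Krt6c, of the family of keratins induced in wounded skin, had -0.098 (SE 0.28, adjusted p = 0.906), and each was above the silent-gene level on 1 of 8 arrays. Krt1, Krt4, Krt20, Krt36 and Krt79 had mean signals under 100 and were above the silent-gene level on 0 of 8 arrays. The type II epidermal keratin Krt1 ranged from 37.2 to 137 over the 8 arrays.

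Genes of the cornified envelope other than Sprr1a were mostly at the level of silent genes. Involucrin (Ivl), an early scaffold protein of the envelope, had signals of at most 33.8, loricrin, its main late component, at most 34.4, and Sprr3, a relative of Sprr1a, at most 32.3. Of the 12 genes with a probe set, 4 were tested, 1 rose and 0 fell, with a median log2 difference of 0.18. The gene that rose was Cstb, which encodes cystatin B and is known first as an inhibitor of cysteine proteases inside cells. Its signal was 1678.5, 1749.6, 1615 and 1998 on control replicates 1 to 4 and 2431, 2317, 2325 and 2864 on dexamethasone replicates 1 to 4, without overlap. For Cstb the log2 difference was 0.50 (limma, SE 0.11, adjusted p = 0.0305), and the adjusted p was above 0.05 without control replicate 1, 2 or 3 or dexamethasone replicate 1, 2 or 4 (0.0572 to 0.0928), with a range of 0.0107 to 1 over all alternatives.

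The enzyme that cross-links Sprr1a into the envelope, transglutaminase 1 (Tgm1), was above the silent-gene level on all 8 arrays. Its signals were 241 to 335 in control and 246 to 393 with dexamethasone, with a log2 difference of 0.24 (SE 0.18, adjusted p = 0.556 from limma). Envoplakin (Evpl), which ties keratin filaments to the envelope, had 0.12 (SE 0.23, adjusted p = 0.852) and was above the silent-gene level on 1 of 8 arrays, and dermokine (Dmkn), a secreted protein of differentiating keratinocytes, had -0.032 (SE 0.18, adjusted p = 0.960). Dmkn was above the silent-gene level on 5 of 8 arrays. Of the 4 envelope genes tested, 0 were called lower, while the others with a probe set were under the filter and could not be called. With so few genes clearly above background, no contrast with Sprr1a is drawn.

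Junctions that anchor keratins were measured by 11 genes of desmosomes and hemidesmosomes, of which 0 passed the test and 1 had an unadjusted p under 0.05 (limma). That gene was desmoplakin (Dsp), the linker between keratin filaments and the desmosome. Its signals were 2659.6 to 3123 in control and 3308 to 3867 with dexamethasone, and its log2 difference was 0.30 (SE 0.091, adjusted p = 0.114). The desmosomal cadherin Dsc2 had 0.21 (adjusted p = 0.340), plakoglobin (Jup) 0.17 (adjusted p = 0.479) and the tetraspanin Cd151 -0.13 (adjusted p = 0.487). The median over the 11 genes was 0.0080.

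Of 10 other intermediate filament genes tested, 0 passed the test and 2 had an unadjusted p under 0.05 (limma), while 9 had a negative log2 difference. Of these 10, Lmna, Nes, Vim, Lmnb1 and Lmnb2 were above the silent-gene level on all 8 arrays, Nefh on 3, and Bfsp1, Gfap, Prph and Synm on 0, so that part of the signs come from background signals. Lamin A/C (Lmna), of the nuclear lamina, had -0.39 (SE 0.12, adjusted p = 0.127), though another probe set of Lmna had means of 501 in control and 504.0 with dexamethasone. Nestin (Nes), known from progenitor cells, had -0.42 (SE 0.17, adjusted p = 0.245). Synemin (Synm) had 0.44 (adjusted p = 0.394) and peripherin (Prph) -0.31 (adjusted p = 0.456). Vimentin (Vim), the filament protein of mesenchymal cells, had -0.095 (SE 0.12, adjusted p = 0.749).

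Among 7 tested proteins that bind or modify keratins 0 passed the test, and 0 had an unadjusted p under 0.05 (limma). The heat shock protein Hspb1 had a log2 difference of 0.17 (adjusted p = 0.510), pinin (Pnn) 0.21 (adjusted p = 0.521), the 14-3-3 protein stratifin (Sfn) -0.18 (adjusted p = 0.566) and trichoplein (Tchp) -0.14 (adjusted p = 0.700). Another probe set of Pnn, with a lower mean signal and not in these counts, did not overlap between the groups. It had 160 to 348 in control and 388 to 471 with dexamethasone. Of 8 tested transcription factors of epithelia 0 passed the test and 1, Klf4, had an unadjusted p under 0.05 (limma). Klf4, a factor of the epidermal barrier, had signals of 1140.0 to 1745 in control and 1757 to 2206 with dexamethasone, and a log2 difference of 0.40 (SE 0.14, adjusted p = 0.186). The inhibitors of differentiation Id2 and Id3 had 0.45 (adjusted p = 0.364) and -0.32 (adjusted p = 0.444), and the Notch target Hes1 had -0.23 (adjusted p = 0.590).

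**Figure D3:**
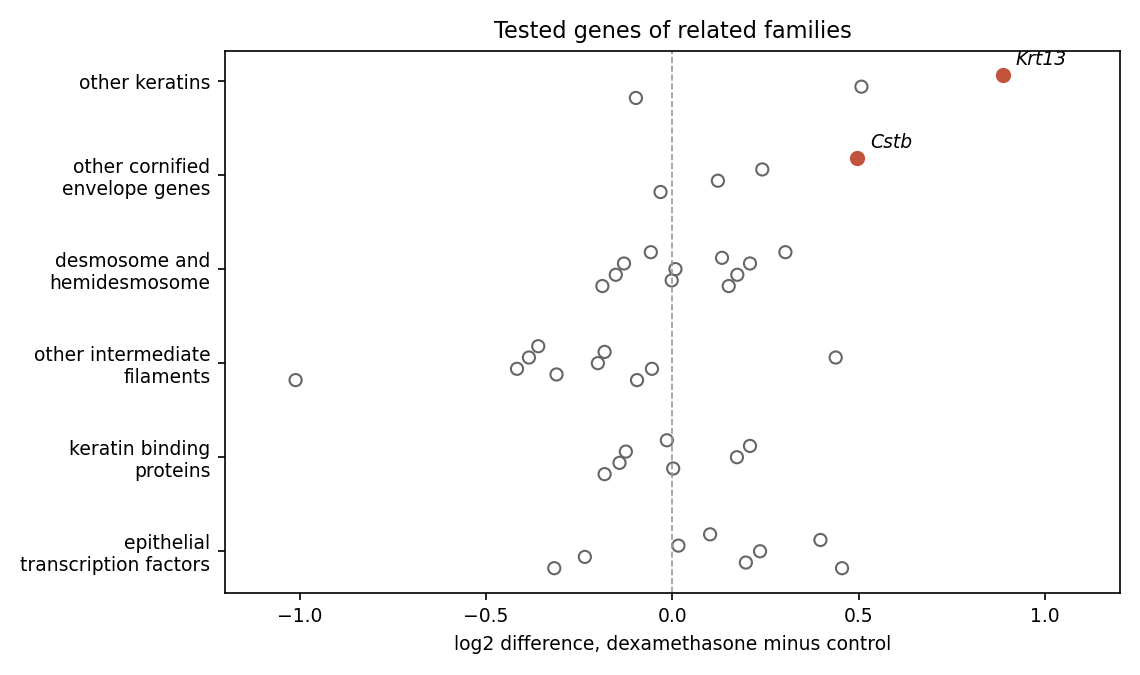
Log2 difference (dexamethasone minus control, n = 4 arrays per group) of each tested gene in the related families, 1 point per gene, filled where the adjusted p from limma was under 0.05. Krt13 at 0.89 and Cstb at 0.50 are the filled points. Of the 10 other intermediate filament genes, 5 were not above the silent-gene level on all 8 arrays.

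Genes whose signals moved most like Sprr1a across the 8 arrays were found by the root mean square distance between log2 signals, each centred on its own mean, among 8697 tested probe sets with 1 gene symbol. The nearest were Osgin1 (0.59), a gene induced by oxidative stress, Scrg1 (0.72), Calca (0.78), which encodes calcitonin gene-related peptide, the alarmin cytokine Il33 (0.86) and Baiap2 (0.86), a scaffold protein at the actin cytoskeleton. Their mean signals were 216 in control and 36.5 with dexamethasone for Osgin1, 756 and 265 for Scrg1, and 205 and 80.1 for Calca. Il33 had 1179 and 467, and Baiap2 had 1486 and 552.5. The means of Osgin1 and Calca with dexamethasone lie under the range of the silent-gene level, and their control means lie within it. The profiles of these genes thus rest on signals near or under background, and both passed the filter on mean signal only through the control group. All 5 were highest on control replicate 3, as Sprr1a was. The distance rests on the difference between the groups as well as on the array sets. For Krt18 the 3 nearest profiles were those of the deubiquitinase Usp37 (0.054), the ephrin receptor Epha2 (0.069) and the cyclin Ccny (0.074), with log2 differences of -0.40, -0.55 and -0.43 beside -0.47 for Krt18. These 3 genes were not called (limma, adjusted p = 0.173, 0.0583 and 0.104), and they were picked for their likeness to Krt18 on the same arrays.

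**Figure D4:**
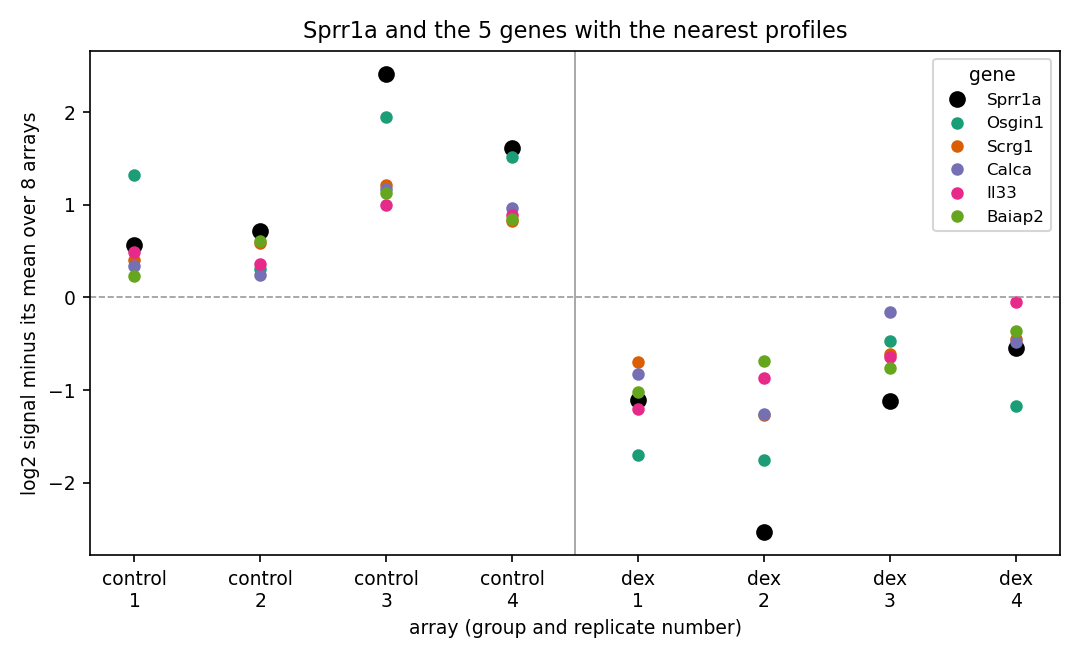
Log2 signal of Sprr1a (black) and of the 5 genes with the nearest profiles on each array, each minus its own mean over the 8 arrays. All 6 genes lie above 0 on the 4 control arrays and below 0 on the 4 dexamethasone arrays, and Sprr1a spans the widest range, from -2.54 to 2.42.

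Markers of other cell types were set beside these results. Of the 8 endothelial markers with a probe set, 5, Pecam1, Vwf, Emcn, Cldn5 and Tie1, were above the silent-gene level on no array, and the summed signal of the list was 1281 to 1582 in control and 3069 to 3698 with dexamethasone, carried by Kdr at 492 to 844 and 2528 to 3028. Kdr, a VEGF receptor, rose by 2.00 on the log2 scale (adjusted p = 2.98e-05 from limma). Flt1, another VEGF receptor, was called lower (adjusted p = 0.0200 from limma, with 0.0042 to 0.247 over the alternatives) at a probe set with signals of 168 to 197 in control. Its signals with dexamethasone, 19.3 to 85.8, were under the silent-gene level on all 4 arrays, so that no size is given, and the other 2 Flt1 probe sets were under it on all 8 arrays and overlapped between the groups. The summed signal of macrophage markers was 727 to 947 in control and higher on every dexamethasone array (up to 1220.0), carried by Cd14 at means of 278 and 544 (limma, log2 difference 0.96, adjusted p = 0.0809), while the other tested markers Csf1r and Aif1 had -0.15 and -0.086. Of the 8 genes, 6 were above the silent-gene level on no array, among them Ptprc, Cd68 and Csf1r. Overlap between the groups was seen in the summed signals of the markers of hair cells, melanocytes, cartilage and bone, fibroblasts, and neurons with Schwann cells, and the part of these cells in the keratin signals was not tested. Of the 8 cartilage and bone markers, Col2a1 and Col9a1 were above the silent-gene level on all 8 arrays and 6 on none. Of the 6 neuron and Schwann cell markers, S100b was above it on all 8 arrays and 5 on none. Of the 4 hair cell markers, Myo6 was above it on all 8 arrays and 3 on none. Scnn1g and Scnn1a, subunits of the sodium channel ENaC and markers of the canal duct, were called higher (limma, adjusted p = 0.00797 and 0.0338, ranging from 0.000175 to 0.0974 and from 0.0012 to 0.463 over the alternatives). Their control signals were above the silent-gene level on 1 of 4 arrays for Scnn1g and on 0 of 4 for Scnn1a. No size is therefore given. With dexamethasone Scnn1a was above this level on 2 of 4 arrays. Another probe set of Scnn1g was under it on all 8 arrays and overlapped between the groups (83.5 to 147 in control and 131 to 163 with dexamethasone). Another probe set of Scnn1a was also under it on all 8 arrays. The ENaC subunit Scnn1b was not called (log2 difference 0.14, adjusted p = 0.738 from limma). Among the markers called, Scnn1a and Flt1 passed the filter on mean signal only through their higher group. The means of Scnn1a were 87.1 in control and 227.9 with dexamethasone, and those of Flt1 were 182.4 and 53.6. With no filter, Scnn1a, Flt1 and Scnn1g were not called (limma, adjusted p = 0.15, 0.126 and 0.0974).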

How the data were processed

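RNA from 4 control samples and 4 samples treated with dexamethasone (100 nM) was amplified by the authors in 2 rounds of in vitro transcription before hybridization to Affymetrix rat arrays. The deposited values are signal intensities on a linear scale, which per the labels were scaled to a target of 500, and the software version is not given in the sources used here. The table was without detection calls. The trimmed mean (2% at each end) of each array was brought to 500, and log2 was taken with a floor of 16. Of 15866 probe sets other than controls, 12783 carried 1 gene symbol, 312 several and 2771 none. The 10368 with a mean signal of at least 100 were tested with limma 3.58.1 in R 4.3.3 (eBayes with trend, two-sided, Benjamini-Hochberg adjustment at 0.05), and the script was tested on simulated data. Krt10, under the filter, was taken from a fit over all probe sets. A gene of the related families with several probe sets was given by that with the highest mean signal.

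The members and gene lists were chosen with earlier results of these data known. The genes named were the members, the up to 4 genes of each related family with the smallest adjusted p, every gene called among the families and markers, the 5 nearest profiles for Sprr1a and the 3 nearest for Krt18. Other genes, such as involucrin, loricrin, Sprr3, Krt1 and Vim, were named after their values were seen. Alternatives changed the scaling, filter, floor, moderation, block, covariate, arrays and estimate of the fold. The number of arrays limits the precision.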

Additional observations from a re-analysis of the deposited data

Results flagged for a closer look

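In 30 sets of 4 arrays, 1 array lay far from the other 3 in 4 cases by Dixon's ratio of the gap to the range (above its 95% critical value), and chance gives about 1 in 20 such sets. Krt14 on control replicate 4 (ratio 0.946) had a signal of 2682.5 beside 1304 to 1355 on the others, and without it the log2 difference of Krt14 was 0.51. Krt10 on control replicate 4 (ratio 0.885) had 134.0 beside 91.2 to 95.3, all under the silent-gene level. Krt5 on dexamethasone replicate 1 (ratio 0.845) had 246 beside 125.0 to 139, near the silent-gene level, and its log2 difference without that array was -0.33. Krt18 on control replicate 3 (ratio 0.830) had 13057 beside 9507 to 10032, and its log2 difference without that array was -0.36.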

How the results depend on the processing

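Sprr1a, Krt18 and Krt8 stayed lower with dexamethasone, and Krt7 and Krt19 higher, under all 24 alternatives, with ranges of -2.92 to -1.83, -0.58 to -0.23, -0.45 to -0.049, 0.030 to 0.25 and 0.18 to 0.47 on the log2 scale. The signs of Krt14 (-0.32 to 0.83), Krt15 (-0.35 to 1.15) and Krt5 (-0.44 to 0.24) changed between alternatives. The number of members called was 2, and it was 1 (Sprr1a) with the signals as deposited, median centring, no trend or replicates 3 and 4 alone, 0 with no filter or the beta-actin ratio as a covariate, 3 with the array set or the replicate number as a block, and 1 to 2 without 1 array, with Krt18 lost without any 1 of the dexamethasone arrays. The gene called among other keratins (Krt13) was lost (0 called) with the signals as deposited, no filter, no trend, replicates 3 and 4 alone and the covariate, and leaving out 1 array gave 0 to 1. Among the envelope genes Cstb was lost (0 called) under the same settings and with median centring, and leaving out 1 array gave 0 to 1. With replicates 1 and 2 alone, 2 transcription factors and 1 keratin binding gene were called, and an array set block fitted without control replicate 3, chosen after seeing the data, gave 2 and 1 as well, with 1 other intermediate filament gene.

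Over all probe sets, 279 were called (195 higher, 84 lower). The signals as deposited gave 36 (34 and 2), no filter 102 (81 and 21), replicates 1 and 2 alone 440, with 154 lower, replicates 3 and 4 alone 21 (19 and 2), and the beta-actin covariate 65 (57 and 8). The array set as a block gave 578 (344 and 234), and also without control replicate 3 it gave 779 (465 and 314). Leaving out 1 array gave 180 to 275 (128 to 192 higher, 49 to 83 lower). The replicate number as a block gave 484 (308 and 176). The deviations of same-numbered arrays correlated at 0.35, 0.25, 0.035 and 0.41 over probe sets. Those of differently numbered arrays within an array set correlated at 0.33, 0.001, -0.026 and 0.43. As these ranges overlap, the numbers were not taken to pair the samples. The cause of these shifts was not tested, and the beta-actin ratio, which did not overlap between the groups, cannot be told apart from the treatment. The differences of Krt5 and Krt10 rest on signals near or below those of the silent genes, and so in part does the size of that of Sprr1a.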
